A study of Mus musculus with 6 samples.

Results

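The 42 genes described here encode the enzymes, transporters and regulators that carry glucose into the cell and through glycolysis, the pentose phosphate pathway and the pyruvate dehydrogenase step. They were chosen by name for these roles, with earlier results of these data known. The array held 20145 mouse genes with a named probe, and each gene was read from its brightest probe. Of the 42 genes, 39 passed the signal filter and were tested, among 16490 genes in all. Ldhb, Pdk3 and Pdk4 did not pass, and their probes stayed near background on every array.

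RNA was taken from neuro2a (N2a) cells, a mouse neuroblastoma line, and hybridised to 6 Agilent single-colour arrays. In the 3 control samples the cells had received an empty vector. In the 3 knockdown samples they had received plasmids expressing miR RNAi against NF-YA and NF-YC, which are subunits of the CCAAT-binding transcription factor NF-Y. By the titles no sample received a non-targeting miR RNAi, so expressing any miR RNAi and losing NF-YA and NF-YC cannot be told apart. Both groups came from transient transfection of 1 cell line, and no sorting of transfected cells was described for it. Nothing in the labels says that the replicates were separate cultures, so the p-values measure only the spread between these samples, which may be technical.

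Glycolysis splits glucose into pyruvate through a chain of cytosolic enzymes, many of which exist as isozymes encoded by separate genes. Lactate dehydrogenase and the monocarboxylate transporters turn pyruvate into lactate and carry it out, whereas the pyruvate dehydrogenase complex, held in check by its kinases, passes pyruvate to the mitochondria. The pentose phosphate pathway branches from glucose 6-phosphate and supplies NADPH and ribose.

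The arrays were alike in signal. Their 75th percentile of intensity, used for scaling, lay between 718.1 and 754.3, between 61.9% and 66.2% of spots were well above background, and no spot was saturated. Correlations between arrays were 0.989 to 0.994 within groups and 0.987 to 0.99 between them. Of 18 neuroblastoma and neuronal marker genes, 16 were well above background on all 6 arrays, among them Hand2 and Dbh, whereas Nefl was near background throughout. Several markers differed between the groups (log2, limma adjusted p below 0.05). Mycn (-0.69), Th (-0.62), Phox2a (-0.49) and Stmn2 (-0.25) were lower in knockdown, 4 of the 17 tested, beside 15.8% of all genes. Gata2 (0.56), Isl1 (0.49) and Gata3 (0.22) were higher, beside 15.7% of all genes. The targeted Nfya was lower by -0.76 ± 0.05 (log2, SE, n = 3 against 3; limma adjusted p = 0.00128) and Nfyc by -1.81 ± 0.04 (limma adjusted p = 0.000323). Nfyb, the NF-Y subunit that was not targeted, was higher by 0.83 ± 0.06 on its brightest probe (limma adjusted p = 0.00131). The precision of every value is limited by the 3 arrays in each group. All arrays were on 1 slide, with the controls and knockdown replicate 1 in 1 row and knockdown replicates 2 and 3 in another, so a comparison within a row rests on 1 knockdown array.

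Most pathway genes had slightly lower signals in knockdown than in control. Of the 39 genes tested, 33 had a change below 0, beside 49.2% of all genes. Their median change (knockdown minus control, log2 scale throughout) was -0.22, and the median of all genes was 0.01. A gene is called here when its limma p, adjusted over all probes, was below 0.05 and its fold change was above 1.5. Aldoc, Slc16a3, Eno2 and Slc2a3 were called lower, which is 4 of 39 genes, beside 5.00% of all genes. No member was called higher, beside 3.91% of all genes. In bulk RNA, fewer cells that express a gene and less RNA in each cell cannot be told apart.

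**Figure D1:**
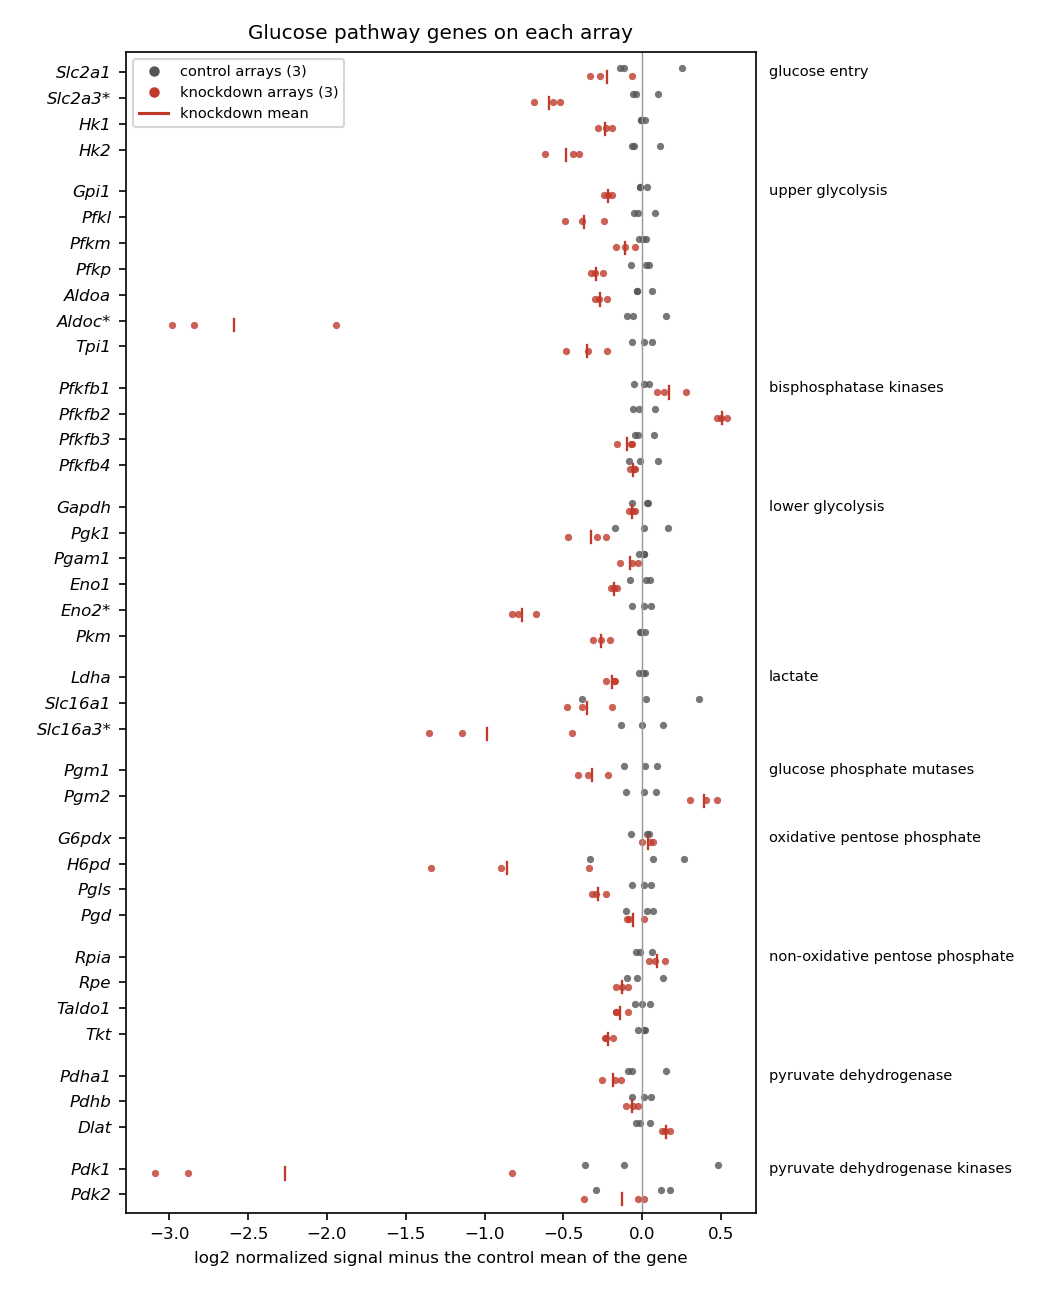
Each row is a tested gene, ordered by role, and each point is 1 array, drawn as its log2 normalized signal minus the gene's mean over the control arrays. Grey points are the 3 control arrays, red points the 3 knockdown arrays, the red bar is the knockdown mean, and an asterisk marks the 4 called genes. Most red points lie slightly left of 0, and Aldoc and Pdk1 lie farthest from it.

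Without the requirement on fold, 16 members were lower at an adjusted p below 0.05 (15.8% of all genes were) and 2 were higher (15.7% of all genes). When any 1 of the 6 arrays was left out, the count of 16 fell to between 4 and 10, beside 10.4% to 12.7% of all genes. It was 3 with scaling on the spike-in probes, beside 7.77% of all genes, and 2 with the slide row as a block, beside 6.06%. The knockdown arrays lay below all control arrays for 25 members, beside 27.1% of all genes, and above them for 4, beside 27.7%. Within the slide row of the controls, knockdown replicate 1 was below the control mean for 31 of 39 members, beside 7604 of 16490 genes. The median difference was -0.19 for the members and 0.03 over all genes. Knockdown replicate 3 was the highest of the knockdown arrays for 17 of the 39 members (43.6%), compared with 25.0% of all genes, and for 13 of the 20 members of glucose entry, glycolysis and lactate handling (65.0%). Control replicate 3 was likewise the highest of the controls for 19 of the 39 members (48.7%), compared with 33.3% of all genes. The part of these arrays in the results was not tested beyond leaving each out.

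**Figure D2:**
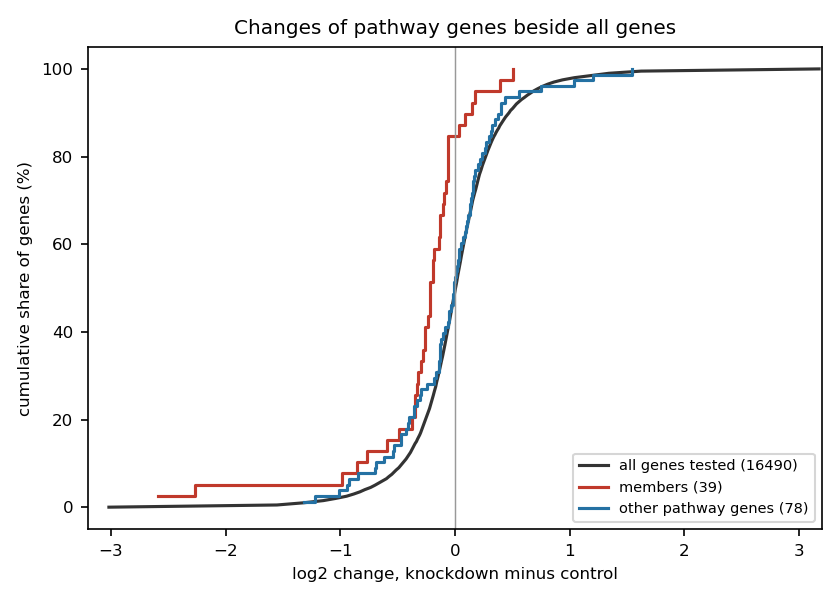
Cumulative share of genes, in percent, against log2 change (knockdown minus control), for all 16490 genes tested, the 39 members tested and 78 other genes of glucose and glycogen metabolism. The curve of the members lies to the left of the curve of all genes, with a median of -0.22 against 0.01, and the curve of the other pathway genes has a median of -0.01.

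Because NF-Y binds the letters CCAAT in promoters, the 250 bases before each start in the RefSeq promoter table (GRCm38.p6) were searched for CCAAT on both strands, that is, for CCAAT or ATTGG. These letters were found in 33.8% of the 32851 windows. Counted by gene, with any start allowed, 39.9% of the 13098 tested genes with a window had them, as did 53.5% of the 660 genes called lower that had one. Of the 38 tested members with a window, 16 had CCAAT (42.1%), with a median change of -0.16, and the 22 without had a median of -0.22. Aldoc, Eno2 and Slc16a3 had none in any window listed, and Slc2a3 had no entry. The letters ACGTG or GCGTG, the core of the hypoxia response element, were searched likewise on both strands. They were present for 32 of 38 members (84.2%), compared with 54.0% of tested genes, and the median change was -0.19 for these members and -0.28 for the 6 without. These counts were not tested. The windows of the called genes Aldoc, Eno2 and Slc16a3 are shown with those of the related genes Aldoa, Eno1 and Slc16a1, so that the presence and place of CCAAT can be compared. Capitals mark CCAAT or ATTGG, and each window ends at the base before the start. Where several starts were listed, the window with the most CCAAT was taken, or the first when tied. The windows are chr11:78322823-78323072 (plus strand) for Aldoc, chr7:126799255-126799504 (minus strand) for Aldoa, chr6:124769674-124769923 (minus strand) for Eno2, chr4:150236947-150237196 (plus strand) for Eno1, chr11:120948817-120949066 (plus strand) for Slc16a3 and chr3:104638414-104638663 (plus strand) for Slc16a1.
Aldoc: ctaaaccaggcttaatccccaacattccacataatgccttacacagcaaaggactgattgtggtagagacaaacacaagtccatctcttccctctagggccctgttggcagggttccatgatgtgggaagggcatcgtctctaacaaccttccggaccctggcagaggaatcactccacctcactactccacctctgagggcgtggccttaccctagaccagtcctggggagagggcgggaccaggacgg
Aldoa: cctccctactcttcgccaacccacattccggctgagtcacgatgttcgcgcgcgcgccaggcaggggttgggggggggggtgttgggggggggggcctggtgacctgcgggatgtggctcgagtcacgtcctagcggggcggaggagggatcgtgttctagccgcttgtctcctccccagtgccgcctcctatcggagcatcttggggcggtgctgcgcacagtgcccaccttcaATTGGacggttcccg
Eno2: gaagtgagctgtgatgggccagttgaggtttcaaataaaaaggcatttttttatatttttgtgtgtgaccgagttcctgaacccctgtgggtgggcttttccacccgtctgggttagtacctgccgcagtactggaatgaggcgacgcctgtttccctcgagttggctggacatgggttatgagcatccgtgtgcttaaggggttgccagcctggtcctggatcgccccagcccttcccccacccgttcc
Eno1: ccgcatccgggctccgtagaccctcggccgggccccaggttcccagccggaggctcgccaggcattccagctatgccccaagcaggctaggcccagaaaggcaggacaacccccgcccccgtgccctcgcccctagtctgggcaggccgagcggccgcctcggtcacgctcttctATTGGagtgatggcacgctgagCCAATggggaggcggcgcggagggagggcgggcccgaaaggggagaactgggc
Slc16a3: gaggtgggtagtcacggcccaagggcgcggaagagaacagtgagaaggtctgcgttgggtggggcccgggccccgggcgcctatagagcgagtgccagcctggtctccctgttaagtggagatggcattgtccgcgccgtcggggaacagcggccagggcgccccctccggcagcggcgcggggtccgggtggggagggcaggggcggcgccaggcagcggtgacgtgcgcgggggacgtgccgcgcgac
Slc16a1: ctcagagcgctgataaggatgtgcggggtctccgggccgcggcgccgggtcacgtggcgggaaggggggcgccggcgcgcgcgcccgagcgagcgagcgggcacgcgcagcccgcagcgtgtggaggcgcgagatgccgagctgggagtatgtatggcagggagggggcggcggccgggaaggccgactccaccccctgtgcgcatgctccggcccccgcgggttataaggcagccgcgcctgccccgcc
In these windows ATTGG began at position -15 from the start for Aldoa and at -75 for Eno1, which also had CCAAT at -53. The letters ACGTG or GCGTG, on either strand, were found in the windows of Aldoc (at -50), Slc16a3 (-27 and -14), Aldoa (-126), Eno1 (-86 and -62) and Slc16a1 (between -200 and -134), and not in that of Eno2.

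All 4 genes of glucose entry had changes below 0, and 1 of them, Slc2a3, was called lower. Slc2a3 encodes GLUT3, the glucose transporter known from neurons. Its log2 normalized signals were 3.65, 3.66 and 3.80 on the control arrays and 3.18, 3.01 and 3.14 on the knockdown arrays, without overlap of the groups. The change was -0.59 ± 0.07 (SE, n = 3 against 3), a 1.51-fold lower signal (limma adjusted p = 0.00523). This size is just past the fold required, and the call was lost without control replicate 3 (-0.54) or without knockdown replicate 2 (-0.54), and within the slide row the difference was -0.52. Slc2a1, which encodes the widely expressed GLUT1, had signals of 2.20, 2.22 and 2.59 in control and 2.07, 2.01 and 2.27 in knockdown. These groups overlapped, and the change of -0.22 ± 0.14 did not pass (limma adjusted p = 0.312).

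The hexokinases phosphorylate glucose and so keep it in the cell. Hk2, the inducible form, had signals of 1.99, 2.01 and 2.17 in control and 1.62, 1.44 and 1.65 in knockdown, a change of -0.49 ± 0.08 (limma adjusted p = 0.0149) that was 1.4-fold. Hk1, the housekeeping form, changed by -0.23 ± 0.04 (limma adjusted p = 0.0188), and its second, dimmer probe read -0.34 (limma adjusted p = 0.00902). For both genes the knockdown arrays lay below every control array, at sizes under the fold required for a call.

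The 7 genes of upper glycolysis all had knockdown arrays below every control array, beside 27.1% of all genes. Of the 7, 6 were lower at an adjusted p below 0.05, beside 15.8% of all genes. The count fell to between 1 and 4 when 1 array was left out (10.4% to 12.7% of all genes). It was 2 with the replicate block (9.72% of all genes) and 1 with the slide row as a block (6.06%) or spike-in scaling (7.77%). The largest change was that of Aldoc, the aldolase isozyme known from brain. Its signals were 3.01, 2.97 and 3.22 on the control arrays and 0.22, 0.08 and 1.12 on the knockdown arrays. Every knockdown array was far below the controls, and knockdown replicate 3 was the nearest to them. The change was -2.59 ± 0.30 (SE, n = 3 against 3), a 6.03-fold lower signal (limma adjusted p = 0.00429). It was -2.84 within the slide row and -2.91 without knockdown replicate 3, and Aldoc was called under all 20 alternatives that kept the fold requirement, with changes between -2.91 and -2.39 and adjusted p up to 0.0376. Aldoc is also known from astrocytes. Of 4 astrocyte markers, Slc1a3 was near background on every array, Gfap and Aqp4 did not pass, and Aldh1l1 lay lower by -0.48 (limma adjusted p = 0.00528). The signals of the 4 markers summed to between 0.186 and 0.21 times the array's 75th percentile in control and between 0.154 and 0.172 times it in knockdown, and their part in the Aldoc result was not tested.

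Aldoa, the aldolase of most tissues, catalyses the same step and had a smaller change. Its signals were 8.61, 8.52 and 8.52 in control and 8.25, 8.27 and 8.32 in knockdown, so that the groups did not overlap. The change was -0.27 ± 0.05, or 1.2-fold (limma adjusted p = 0.0186). Taken array by array, the change of Aldoc differed from that of Aldoa by -2.33 ± 0.32 (SE), with no overlap between groups. With the arrays assigned to groups in all 20 possible ways, an exact two-sided permutation test gave p = 0.1, which is the smallest that 3 against 3 arrays allow.

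The phosphofructokinases catalyse the committed step of glycolysis. Pfkl, the liver-type subunit, had signals of 2.76, 2.78 and 2.89 in control and 2.43, 2.32 and 2.57 in knockdown, a change of -0.37 ± 0.08 (limma adjusted p = 0.0308). Pfkm, the muscle-type subunit, had signals of 3.45, 3.42 and 3.47 in control and 3.4, 3.28 and 3.34 in knockdown, a change of -0.11 ± 0.05 that did not pass (limma adjusted p = 0.188). Pfkp, the platelet-type subunit, lay between them at -0.29 (limma adjusted p = 0.0159), and a second, dimmer probe of Pfkp read -0.20 and did not pass. The isomerases Gpi1, which makes fructose 6-phosphate, and Tpi1, which interconverts the triose phosphates, changed by -0.22 and -0.35 and passed the adjusted p on every probe of theirs.

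**Figure D3:**
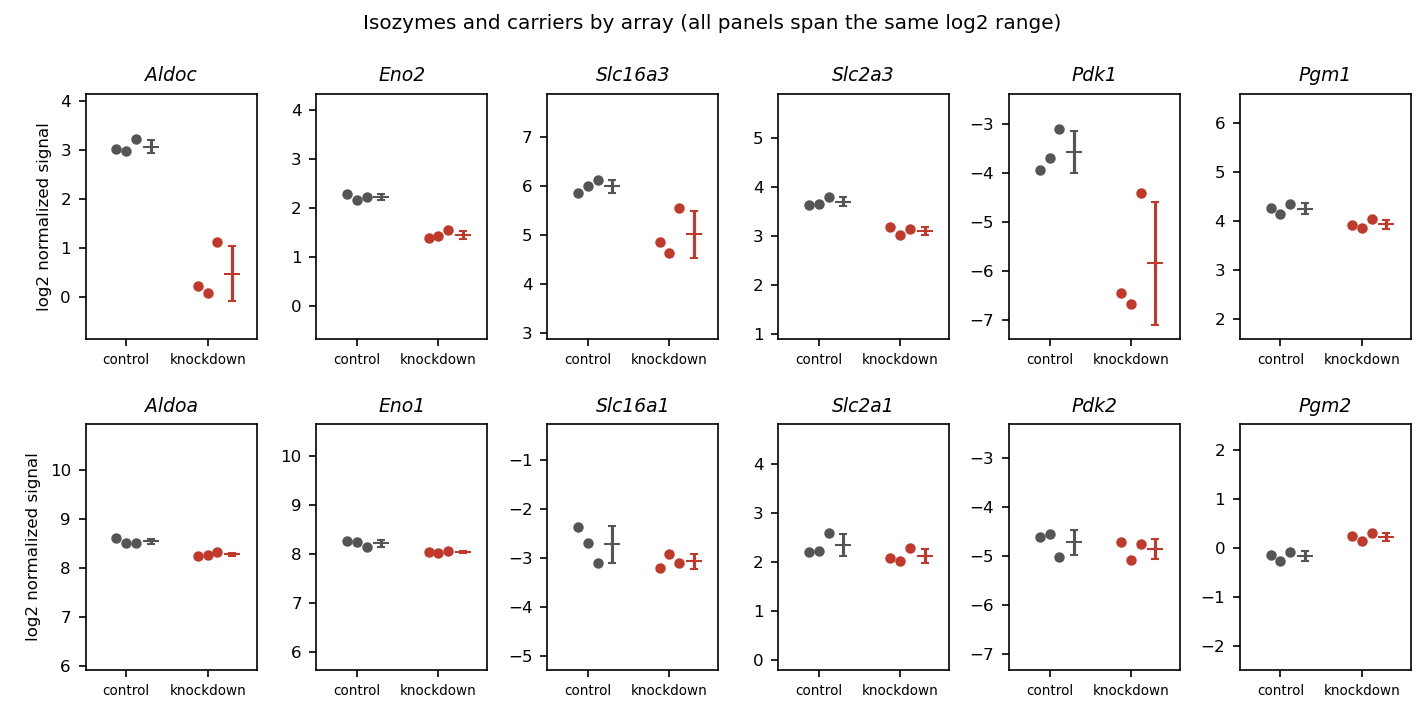
Log2 normalized signal on each of the 3 control arrays (grey) and 3 knockdown arrays (red) for pairs of related genes, one pair in each column, with the mean and SD beside the points. Each panel spans the same range, so sizes of change can be compared between panels, but levels of different probes cannot. Aldoc falls from about 3.07 to 0.47 while Aldoa goes from 8.55 to 8.28.

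The bifunctional enzymes encoded by Pfkfb1 to Pfkfb4 make and break down fructose 2,6-bisphosphate, the activator of phosphofructokinase. Pfkfb2, the heart-type form, was the member with the largest change above 0. Its signals were -2.40, -2.44 and -2.30 in control and -1.91, -1.84 and -1.88 in knockdown, a change of 0.50 ± 0.05 (limma adjusted p = 0.0037) below the fold required. Pfkfb4 had signals of 0.78, 0.67 and 0.60 in control and 0.63, 0.63 and 0.60 in knockdown, which overlapped, with a change of -0.06 (limma adjusted p = 0.533). Pfkfb1 had a change of 0.17 and Pfkfb3, the inducible form, one of -0.10, and neither passed. The second probes of Pfkfb3 and Pfkfb4 read 0.17 and 0.64 and did not pass either, so for these genes the probes disagreed in direction.

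All 6 genes of lower glycolysis had changes below 0, and Eno2 was called. Eno2, or neuron-specific enolase, had signals of 2.27, 2.15 and 2.23 in control and 1.39, 1.43 and 1.55 in knockdown. The groups were well apart, and the change was -0.76 ± 0.06 (SE, n = 3 against 3), a 1.7-fold lower signal (limma adjusted p = 0.00175). It was -0.83 within the slide row, and Eno2 was called in all 20 alternatives that kept the fold requirement, between -0.88 and -0.69. Eno1, the enolase of most tissues, had signals of 8.27, 8.24 and 8.14 in control and 8.04, 8.02 and 8.06 in knockdown, and its change of -0.18 ± 0.05 did not pass (limma adjusted p = 0.0643). The change of Eno2 differed from that of Eno1 by -0.58 ± 0.07 (SE), with no overlap (exact permutation p = 0.1).

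Gapdh, which oxidises glyceraldehyde 3-phosphate and often serves as a reference gene, had the smallest change of the lower part of the pathway. Its signals were 9.0, 8.99 and 8.90 in control and 8.88, 8.92 and 8.90 in knockdown, and the change was -0.07 ± 0.05 (limma adjusted p = 0.39). Over its 7 probes the changes ran from -0.20 to 0.01 and none passed, and with quantile normalization the brightest probe read 0.03. Pgk1, phosphoglycerate kinase, had signals of 6.34, 6.53 and 6.68 in control and 6.23, 6.04 and 6.29 in knockdown, and its change of -0.33 ± 0.11 did not pass (limma adjusted p = 0.103). Pkm, pyruvate kinase, passed with a change of -0.26 (limma adjusted p = 0.0161), and Pgam1, phosphoglycerate mutase, did not pass at -0.08. Several of these genes, Gapdh among them, have processed pseudogenes that resemble the mRNA, and the arrays were not checked for signal from such copies.

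Of the lactate genes, the monocarboxylate transporter Slc16a3 (MCT4), a carrier known for exporting lactate, was called lower. Its signals were 5.87, 6.0 and 6.13 in control and 4.85, 4.64 and 5.55 in knockdown. The groups did not overlap, but knockdown replicate 3 lay closer to the controls than to the other knockdown arrays. The change was -0.98 ± 0.25 (SE, n = 3 against 3), a 1.98-fold lower signal (limma adjusted p = 0.0478), and the other probe of the gene read -1.04. It was -1.15 within the slide row and -1.25 without knockdown replicate 3 (limma adjusted p = 0.0103). The call was lost when any of the other 5 arrays was left out, with changes from -1.05 to -0.80 and adjusted p from 0.106 to 0.128.

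Slc16a1 (MCT1), the more widespread transporter, had signals of -2.35, -2.69 and -3.10 in control and -3.19, -2.90 and -3.10 in knockdown. The groups overlapped, and the change was -0.35 ± 0.21 (limma adjusted p = 0.29). The difference between the changes of Slc16a3 and Slc16a1 was -0.63 ± 0.43, with overlap (exact permutation p = 0.2). Ldha, the lactate dehydrogenase subunit that favours lactate formation, had signals of 8.84, 8.86 and 8.82 in control and 8.61, 8.67 and 8.66 in knockdown. Its change was -0.19 ± 0.04 on the brightest probe (limma adjusted p = 0.0288). The other probes read -0.30 and -0.36, and all 3 probes passed. No change is given for Ldhb, whose probe was not well above background.

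Pgm1 and Pgm2, of the phosphoglucomutase family, had changes of opposite sign. Pgm1, under its RefSeq name, had signals of 4.27, 4.14 and 4.35 in control and 3.91, 3.85 and 4.04 in knockdown, a change of -0.32 ± 0.08 (limma adjusted p = 0.0457). Pgm2 had signals of -0.15, -0.27 and -0.07 in control and 0.24, 0.14 and 0.31 in knockdown, a change of 0.39 ± 0.08 (limma adjusted p = 0.0207). Neither reached the fold required, and both genes showed no overlap between groups. The difference between them was -0.71 ± 0.02 (SE; exact permutation p = 0.1), with the smallest SE among the pairs.

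In the pentose phosphate pathway no gene was called. In its oxidative branch, the entry enzyme G6pdx had signals of 4.89, 4.90 and 4.79 in control and 4.93, 4.86 and 4.91 in knockdown, and the change of 0.04 ± 0.05 was within the spread (limma adjusted p = 0.65). Pgls, the lactonase that follows it, changed by -0.28 ± 0.05 and passed the adjusted p (0.0192, limma), whereas Pgd, the second NADPH-forming enzyme, changed by -0.06 and did not. H6pd, which acts in the endoplasmic reticulum, did not rise well above background anywhere, so no fold is given for it, although it is counted among the 39 genes tested.

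Among the non-oxidative enzymes, Tkt, transketolase, had signals of 6.24, 6.28 and 6.27 in control and 6.08, 6.04 and 6.03 in knockdown. Its change of -0.22 ± 0.04 passed (limma adjusted p = 0.0202). Rpia, which isomerises ribose 5-phosphate, had signals of 0.93, 0.82 and 0.85 in control and 1.01, 0.95 and 0.91 in knockdown, with overlap and a change of 0.09 (limma adjusted p = 0.282). Rpe, the epimerase, and Taldo1, transaldolase, had changes of -0.13 and -0.14 and did not pass.

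None of the 3 genes of the pyruvate dehydrogenase complex passed. Pdha1, of the first catalytic subunit, had signals of 3.47, 3.44 and 3.68 in control and 3.39, 3.28 and 3.36 in knockdown, a change of -0.19 ± 0.08 (limma adjusted p = 0.172). Pdhb, its partner subunit, had signals of 4.75, 4.67 and 4.79 in control and 4.71, 4.68 and 4.64 in knockdown, which overlapped, with a change of -0.06 (limma adjusted p = 0.442). Dlat, the acetyltransferase core, had a change of 0.15 (limma adjusted p = 0.078).

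The pyruvate dehydrogenase kinases switch that complex off, and Pdk1 was not called, although its groups lay apart. Its signals were -3.95, -3.70 and -3.10 in control and -6.46, -6.67 and -4.41 in knockdown. As for Aldoc and Slc16a3, knockdown replicate 3 was the nearest to the controls. The change was -2.27 ± 0.67 (SE, n = 3 against 3; limma adjusted p = 0.0701), and its signal cleared background well on all 3 control arrays but on 1 of 3 knockdown arrays. Without knockdown replicate 3 the change was -2.99 (limma adjusted p = 0.0106), and with a normexp background correction it was -0.56, so the size of the change is uncertain. Pdk1 was called lower in 4 of the 20 alternatives that kept the fold requirement, among them normexp with quantile normalization. Pdk2 had signals of -4.60, -4.54 and -5.02 in control and -4.71, -5.09 and -4.75 in knockdown, with a change of -0.13 ± 0.17 (limma adjusted p = 0.639).

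Across the families, 16 pairs of related genes could be compared out of 23, in 9 families, each as the difference of the 2 genes on the same array, so that scaling of the array cancels. In 13 pairs the groups did not overlap. No share over pairs of other genes was computed. Of all single genes, 27.1% had knockdown arrays below all control arrays and 27.7% above them, so a lack of overlap was common. Pairs within a larger family, such as Pfkfb1 to Pfkfb4, share genes and are not independent. Among the 13 was Pdk1 with Pdk2, whose difference of -2.14 rests on a probe near background on most knockdown arrays and was -0.51 with normexp. Each of these 13 had an exact permutation p = 0.1, or 0.123 after Benjamini-Hochberg adjustment over the 16 pairs, so no pair could pass at 3 against 3 arrays. The pairs that overlapped were Slc16a3 with Slc16a1, Pfkl with Pfkp (-0.08 ± 0.07) and Pfkfb3 with Pfkfb4 (-0.04 ± 0.10). Besides those above, the difference was -0.37 ± 0.10 between Slc2a3 and Slc2a1, -0.25 ± 0.08 between Hk2 and Hk1 and -0.60 ± 0.05 between Pfkfb3 and Pfkfb2. Pairs with Ldhb, H6pd, Pdk3 or Pdk4 were not compared, since those genes were not well above background.

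**Figure D4:**
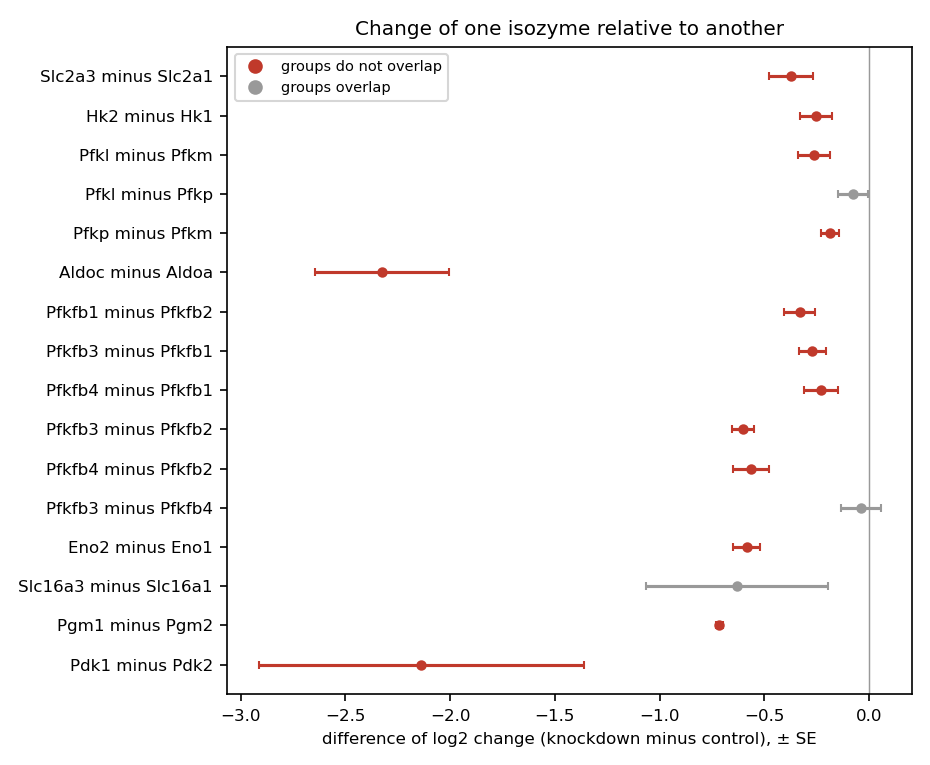
Difference between the log2 changes (knockdown minus control) of 2 related genes on the same arrays, with its SE, for the 16 pairs compared. Red pairs had no overlap between the 3 control and 3 knockdown arrays and grey pairs overlapped. The first gene of a pair is the one with the lower change, so that all points lie left of 0. Aldoc minus Aldoa (-2.33) lies farthest from it, and Pdk1 minus Pdk2, next to it in size, has the widest error.

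A wider list of 85 genes of sugar transport, gluconeogenesis, glycogen, pentose, fructose and shuttle metabolism was read in the same way, and 78 were tested. Their changes were spread around 0, with 40 below it and a median of -0.01. Of the 78 genes, 8 were called lower (5.00% of all genes) and 2 higher (3.91% of all genes). Without the fold requirement 18 were lower (15.8% of all genes) and 10 higher (15.7% of all genes). These counts ranged from 15 to 17 and from 3 to 6 when 1 array was left out. They were 7 and 3 with the slide row as a block and 14 and 4 with spike-in scaling. The shares of all genes lower were 10.4% to 12.7%, 6.06% and 7.77% in these fits. No share of all genes higher was computed for them.

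Of the called genes of this list, Gys1 had the largest change. It encodes the glycogen synthase of muscle and most other tissues, and its signals were 1.70, 1.73 and 1.75 in control and 0.34, 0.31 and 0.57 in knockdown. Its change was -1.32 ± 0.08 (limma adjusted p = 0.000932). Further transporters of the same family as Slc2a3 were called lower, namely Slc2a8 at -1.22, Slc2a6 at -0.94 and Slc2a13, a myo-inositol carrier, at -0.85. Khk, the fructokinase, was called at -1.01 and Tigar, a fructose bisphosphatase that lowers glycolytic flux, at -0.92. For each of these 6 genes the knockdown arrays lay below all control arrays, and each stayed called when any 1 array was left out. Slc2a13 lost its call under both normexp corrections, at -0.31 and -0.36, and with the slide row as a block (-0.78, limma adjusted p = 0.0514).

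Also called lower were Slc37a4, the glucose 6-phosphate transporter of the endoplasmic reticulum, at -0.70, and Ldhc, the testis lactate dehydrogenase, at -0.62. Ldhc lost its call when any array but knockdown replicate 1 was left out, with adjusted p up to 0.098. It also lost it with the mean of its probes (-1.27), with the slide row as a block (-0.36) and with both normexp corrections (-0.28 and -0.33). Higher in knockdown were Phkg2, a catalytic subunit of phosphorylase kinase, at 0.75 ± 0.07 (limma adjusted p = 0.00226), and Hkdc1, a hexokinase domain protein, at 1.2 ± 0.22 (limma adjusted p = 0.0167). Hkdc1 was dim, with a signal well above background on 2 of 3 control arrays, and its call was lost when control replicate 2 or either of knockdown replicates 1 and 2 was left out, and with either block. With the normexp corrections its change was 0.34 and 0.29 and not called. No gluconeogenesis, pentose phosphate or pyruvate dehydrogenase gene of the wider list was called except Slc37a4.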

How the data were processed

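RNA of N2a cells was measured on Agilent mouse arrays, with 3 control and 3 knockdown samples grouped by their titles. The authors scanned the arrays with Feature Extraction 10.10.1.1, and the deposited tables give processed signals as intensity values from which the software had removed background. The deposited series matrix holds log2 values of unstated scale and centring; differences between its arrays matched those computed here to within 0.00761 over 43557 probes, and its columns had medians from -0.0117 to 0.0182. It served as an alternative.

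Control and outlier spots were left out, log2 intensity minus the array's 75th percentile was taken, and replicate spots were averaged per probe. A value was missing on some array for 245 of 55681 probes. A probe was tested when it reached its array's 20th percentile on all 3 arrays of a group. Symbols came from a RefSeq table (GRCm38.p6), which matched 25869 of 26392 probes with a curated accession, and a gene was read from its brightest tested probe. Linear models without covariates were fitted in limma 3.58.1 (R 4.3.3), with moderated two-sided tests and Benjamini-Hochberg adjustment over all probes tested, and the scripts were tested on simulated data. Isozyme pairs were compared by exact permutation. Genes were named by role group, by call, by isozyme of a called gene, and by the largest and smallest uncalled change of each role. The members, lists and pairs were chosen with earlier results of these data known. Alternatives were other scalings, normexp (offset 50, on median spot and background signals), filters, thresholds, array weights, an intensity trend, blocks, averaging over the probes of a gene, and omission of single arrays.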

Additional observations from a re-analysis of the deposited data

How the results depend on the processing

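Of the members, 4 were called lower (5.00% of all genes). The count was 2 with array weights, quantile normalization, the slide row as a block or spike-in scaling. The shares of all genes called lower in these were 5.03%, 5.12%, 4.15% and 4.47%. The count was 16 with no minimum fold change (15.8% of all genes) and 1 with a fold change above 2 (1.73%). It was from 2 to 5 when 1 array was left out, beside 4.53% to 5.04% of all genes. Members called higher were 2 with no minimum fold change (15.7% of all genes). Of the other pathway genes, 18 were called lower with no minimum fold change (15.8% of all genes) and 3 with a fold above 2 (1.73%). With no minimum fold, 10 were called higher (15.7% of all genes). Only 1 was called higher under both normexp corrections (272 and 288 of 16490 genes), with the slide row as a block (494) and with a fold above 2 (181). From 1 to 2 were called higher when 1 array was left out, beside 548 to 607 of 16490 genes. The replicate number as a block left 3 members called lower (Slc2a3, Aldoc and Eno2), beside 4.64% of all genes. It left 6 members with a change below 0 at an adjusted p below 0.05, in place of 16. The share of all genes was 9.72%, in place of 15.8%. Deviations of samples with the same number correlated at 0.0178, 0.0666 and 0.00246 over the probes tested. Such correlations cannot decide whether samples with the same number shared a culture or day, and the labels do not say. Slc2a3 was called in 12 and Slc16a3 in 9 of the 20 alternatives that kept the fold requirement, and Aldoc and Eno2 in all 20. The difference between Aldoc and Aldoa kept its direction, from -2.63 to -2.13, in every alternative run for it.

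Directions that turned were all of small changes in genes that were not called. With the mean of a gene's probes these were the change of Pfkfb3 (0.0335), the change of Pfkfb4 (0.29) and the difference of change, Pfkfb4 minus Pfkfb1 (0.12). The difference of change, Pfkfb3 minus Pfkfb4, whose groups overlapped, was 0.02 with normexp plus quantile normalization and 0.04 without control replicate 3. The others were the change of Gapdh (0.0041 and 0.0344) and the change of Pgam1 (0.0130 and 0.0111) with normexp plus quantile and with quantile normalization, the change of G6pdx (-0.0789) and the change of Rpia (-0.0253) with median scaling, and the change of Pgd (0.0092) and the change of Pdk2 (0.01) with the slide row as a block. Median scaling moved the median of all genes to -0.11 and that of the members to -0.33, and split the called genes into 1175 lower and 382 higher, in place of 824 and 644. The split was 587 and 272 with normexp and 549 and 288 with normexp and quantile normalization. The cause was not tested. Signal over background limits what can be said of Ldhb, Pdk3, Pdk4 and H6pd, and of Pdk1 in knockdown.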
